A study of Mus musculus with 12 samples.

Results

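Type 1 conventional dendritic cells (cDC1) from the inguinal lymph nodes of mice that had both a subcutaneous KPC tumor and a CD40 agonist (the group Tumor-CD40) were compared with cDC1 from mice that had neither (NoTumor-NoCD40). Libraries were taken by the group name in their titles, which gave 3 of Tumor-CD40 and 3 of NoTumor-NoCD40, 6 of the 12 libraries of the series. The 6 others, 3 of NoTumor-CD40 (agonist, no tumor) and 3 of Tumor-NoCD40 (tumor, no agonist), complete a 2 by 2 design in which this comparison is the diagonal. All 4 groups share the lymph node and the cell type. KPC commonly stands for tumor cells of a genetically engineered mouse model of pancreas cancer; the labels give neither the clone nor the number of cells injected. They also give no strain, age or sex, no dose or time of the agonist, and no sort gate. Nothing states whether each library holds its own animal or a pool, and the p-values therefore reflect the spread among libraries, which may be technical. Tumor and agonist change together across the diagonal, so their parts in a value cannot be told apart from it alone, and 2 further contrasts of the same fit, given at the end, test where the diagonal differs from the agonist's effect within 1 tumor state.

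As background, cDC1 take up material from dying cells and present it on MHC class I to CD8 T cells, and they are marked by the chemokine receptor Xcr1 and the dead-cell receptor Clec9a and depend on the transcription factors Irf8 and Batf3. CD40 is the receptor through which helper T cells license dendritic cells: its signal runs through TRAF proteins and NF-kB and raises costimulatory ligands, cytokines such as IL-12 and survival genes. B cells also carry CD40. Interferons act through STAT and IRF factors on a large set of genes whose promoters often hold an interferon-stimulated response element (ISRE).

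The deposited expected counts of the 6 libraries summed to between 22855143 and 27163393. Correlations of log2 CPM (counts scaled to a common library size) were 0.922 to 0.949 within the 2 groups and 0.908 to 0.925 between them. The defining cDC1 markers were present: Xcr1 was between 198 and 780 CPM, Clec9a between 113 and 316, Irf8 between 1290 and 2600 and Batf3 between 85.2 and 133 in the 6 libraries, while Siglech of plasmacytoid dendritic cells stayed at 4.46 CPM or lower and Col1a1 of stroma at 1.65 or lower. Other markers were detected or differed between the groups: the T cell gene Cd3e was at 13.8 to 24.6 CPM against 17.2 to 31 in Tumor-CD40, the NK cell gene Ncr1 at 0.536 to 0.691 against 0.826 to 6.19, the monocyte gene Ly6c2 at 9.18 to 14.8 against 47.4 to 71.4, and the B cell gene Ms4a1 at 7.09 to 19.1 against 120 to 362. The lists these belong to are described later. So is the plasmacytoid dendritic cell list, in which 10 of 12 genes lay above 0 although Siglech was low. Levels are normalized CPM, and fold changes are log2 values of Tumor-CD40 over NoTumor-NoCD40 with a standard error (SE). In bulk RNA, fewer cells of a type and less RNA per cell cannot be told apart.

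Across the diagonal more genes passed as higher than as lower. Over all genes tested, 8782 had a log2 fold change above 0 and 9306 below. With the quasi-likelihood test of edgeR, adjusted by Benjamini-Hochberg (threshold 0.05), 333 of 18095 genes passed (1.84%), 288 higher in Tumor-CD40 (1.59% of the genes tested) and 45 lower (0.249%). These shares are the background for every list count given below. Of the 288 higher genes, 56 were immunoglobulin genes, 20 more were on the lists of B cell and plasma cell markers and 23 more were on 2 interferon lists. The libraries of the 2 groups did not overlap for 285 of the 288 and for 45 of the 45, where 11% of all genes tested lay higher without overlap and 12.4% lower. The median log2 fold change was 2.43 among the higher and -2.04 among the lower genes. How many genes passed depended on single libraries: it was 66 without NoTumor-NoCD40 library 3, 72 without NoTumor-NoCD40 library 2, 144 without NoTumor-NoCD40 library 1, 153 without Tumor-CD40 library 3 and 215 and 224 without the other 2, and 54 of the higher and 3 of the lower genes passed in each of these 6 fits. With only the 6 libraries in the fit, 721 genes were higher and 520 lower.

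**Figure D1:**
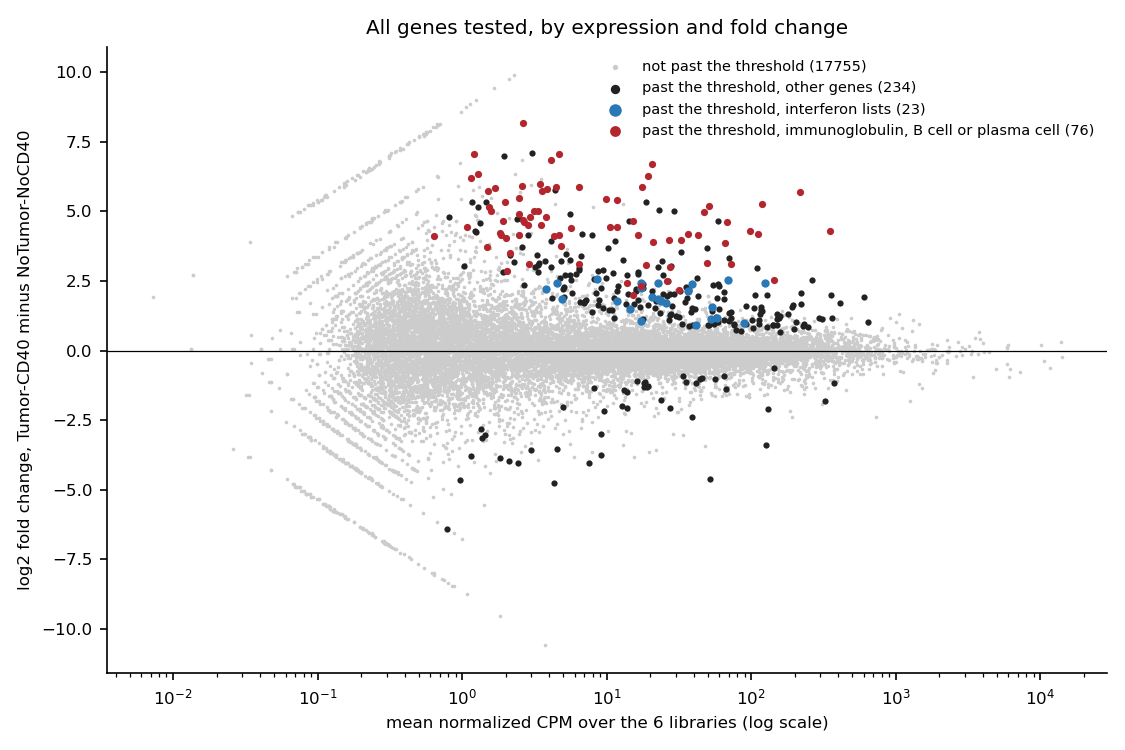
Each point is a gene tested, with its mean normalized CPM over the 6 libraries on a log scale (x axis) and its log2 fold change of Tumor-CD40 over NoTumor-NoCD40 (y axis). Genes past the threshold lie mostly above 0, and the immunoglobulin, B cell and plasma cell genes (red, 76) reach larger fold changes than the genes of the interferon lists (blue, 23).

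Interferon-stimulated genes were higher in the cDC1 of tumor-bearing, agonist-treated mice. Of 49 type I interferon response genes tested, 16 rose and 0 fell, the median log2 fold change was 0.81 against -0.02 over all genes tested, and 47 lay above 0. Oas3 (ENSMUSG00000032661, chromosome 5, 120753098 to 120777661 on GRCm38), an oligoadenylate synthetase that senses double-stranded RNA, was at 16.1, 14.4 and 10.4 CPM in the 3 NoTumor-NoCD40 libraries and at 65.8, 59.2 and 54.3 in the 3 Tumor-CD40 libraries. The groups lay far apart, with a log2 fold change of 2.13 ± 0.22 (SE; edgeR adjusted p = 0.00108). Ifi27l2a, a small interferon-induced membrane protein, was at 18.6, 28.2 and 14.2 CPM without and at 127, 109 and 119 with tumor and agonist. Its lowest treated library was thus above its highest untouched one, and its log2 fold change was 2.54 ± 0.28 (edgeR adjusted p = 0.00108). Isg15, a ubiquitin-like modifier, was at 32.4, 30.4 and 18 CPM against 86.5, 75.1 and 76.2, a log2 fold change of 1.55 ± 0.27 (edgeR adjusted p = 0.00826, and 0.0586 without NoTumor-NoCD40 library 3).

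The other oligoadenylate synthetase family members that rose were Oas1a (1.94), Oasl1 (2.40 ± 0.32) and Oasl2 (2.45 ± 0.33); reads can be shared within this family, and between Ifit3 (2.44 ± 0.42) and its near copy Ifit3b (2.41), so the division among copies is less certain than the rise. Rsad2, an antiviral radical SAM enzyme (1.84 ± 0.34), Ifitm3, which blocks viral entry (1.71 ± 0.34), Rtp4 (2.57 ± 0.48), Isg20 (1.49) and Xaf1 (1.05) also rose. Irf7, a transcription factor of the response, did not pass (1.11 ± 0.43, edgeR adjusted p = 0.255). Mx1 (-0.53) and Samd9l (-1.10) were the members below 0. Among genes of no list, chosen after their values were seen, Helz2 (1.54 ± 0.24) and Mov10 (1.48 ± 0.22), both helicases of the antiviral response, and Pml (0.91 ± 0.19), which builds nuclear bodies, rose too; Helz2 and Mov10 passed whichever library was left out and Pml in none of these fits. Of the 16 genes of the list, 5 passed without NoTumor-NoCD40 library 3 and 7 without NoTumor-NoCD40 library 2, against 11 to 12 without any of the other 4; Oas1a, Oas3, Oasl1, Oasl2 and Ifi27l2a passed in all 6 such fits.

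Interferon gamma response genes gave a similar picture at lower counts: of 30 tested, 7 rose, 0 fell and the median was 0.80. Their summed level overlapped between the groups, at 6110, 6520 and 6270 CPM in NoTumor-NoCD40 against 6460, 6770 and 5920 in Tumor-CD40. The immunity-related GTPases, which attack the vacuoles of intracellular parasites, had small and even changes. Igtp was at 28.3, 29.4 and 28.8 CPM against 60.1, 45.2 and 57.5, with no overlap and a log2 fold change of 0.91 ± 0.17 (edgeR adjusted p = 0.0139), and Irgm1 (1.01) and Ifi47 (1.18) rose as well. Of the guanylate-binding proteins, Gbp6 (2.23 ± 0.46), Gbp2b (1.86 ± 0.37) and Gbp7 (1.77) rose; these genes are close copies of each other, which makes their split uncertain. The remaining gene of the 7 was Cd274, which is also on the coinhibitory list and is described below. Without NoTumor-NoCD40 library 1, NoTumor-NoCD40 library 3 or Tumor-CD40 library 3, 1 of the list passed (2, 3 and 5 without the other libraries). That gene was Cd274, which passed in all 6 such fits, while Igtp, Gbp2b and Gbp6 passed in 1 each.

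The promoters of these genes are shown because members of both lists moved together. An ISRE was searched as GAAANNGAAA on either strand in the 250 bases before the RefSeq start of each gene (GRCm38.p6; 11558 of 18076 gene symbols tested had a promoter entry). It was found in 3.44% of all promoters with an entry, in 6 of 12 (50%) of the type I list members that rose and in 14 of 36 (38.9%) of all members of that list tested, and in 4 of 6 (66.7%) of the interferon gamma list members that rose and 12 of 21 (57.1%) of all tested. Of all higher genes other than immunoglobulins, 24 of 167 (14.4%) held it, and of the lower genes 1 of 35 (2.86%). A match describes the letters and is no evidence of binding. Stretches follow, 5′ to 3′ on the strand of the gene, with the match or overlapping matches in capitals and up to 25 bases on each side. Isg15 is from chr4:156200850-156200921 (minus strand), Oas1a from chr5:120907526-120907570 (minus), Oas3 from chr5:120777700-120777759 (minus), Ifit3 from chr19:34583348-34583441 (plus), Igtp from chr11:58199497-58199555 (plus) and Gbp7 from chr3:142530258-142530317 (plus).
Isg15: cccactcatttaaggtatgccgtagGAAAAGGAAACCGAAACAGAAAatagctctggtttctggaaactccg
Oas1a: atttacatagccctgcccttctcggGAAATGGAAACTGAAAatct
Oas3: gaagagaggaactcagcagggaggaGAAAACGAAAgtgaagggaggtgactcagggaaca
Ifit3: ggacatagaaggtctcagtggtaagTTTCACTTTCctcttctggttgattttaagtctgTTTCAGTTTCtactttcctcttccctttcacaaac
Igtp: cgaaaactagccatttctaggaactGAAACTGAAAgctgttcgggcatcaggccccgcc
Gbp7: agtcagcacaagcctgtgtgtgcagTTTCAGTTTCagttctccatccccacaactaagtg
Isg15 held 3 overlapping matches in 1 run, and in Oas1a 2 overlapping matches ended 5 bases before the start. Ifit3 held 2 separate matches, which like that of Gbp7 read on the opposite strand.

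Several checkpoint ligands rose in Tumor-CD40 cDC1. Of 19 coinhibitory genes tested, 6 rose and 0 fell, with a median of 0.87. The summed level of the 19 did not rise, at 1430, 1710 and 1600 CPM in NoTumor-NoCD40 against 1380, 1630 and 1260 in Tumor-CD40. Cd274 (ENSMUSG00000016496, chromosome 19, 29367455 to 29388095), which encodes PD-L1, was at 53.7, 39.4 and 23.2 CPM in untouched and at 186, 243 and 199 in treated tumor-bearing mice, a log2 fold change of 2.43 ± 0.35 (edgeR adjusted p = 0.00345). Its neighbour Pdcd1lg2 (ENSMUSG00000016498, chromosome 19, 29410919 to 29471161), which encodes the second PD-1 ligand PD-L2, was at 5.93, 4.6 and 2.46 CPM against 16.1, 22.2 and 19.9, a log2 fold change of 2.16 ± 0.32 (edgeR adjusted p = 0.00387). Neither gene's groups overlapped, and both passed whichever of the 6 libraries was left out. Nectin2, a ligand of TIGIT and CD226, went from 1.19, 2.07 and 1.15 CPM to 8.35, 11.1 and 9.39 (2.70 ± 0.42). Tnfrsf14, the receptor HVEM that binds BTLA (1.22 ± 0.25), Cd200 (1.51 ± 0.36) and the inhibitory receptor Lilrb4a (1.81 ± 0.40) rose as well, while Havcr2, which encodes TIM-3, had -1.13 (edgeR adjusted p = 0.454) and the tryptophan-degrading enzyme Ido1 2.49 ± 0.82 (adjusted p = 0.158), which did not pass. Of the 6 genes, 3 or 4 passed when 1 library was left out, with 3 without any 1 of the 3 NoTumor-NoCD40 libraries, and Cd200 passed in none of these fits.

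Costimulatory ligands rose in part. Of 14 genes tested, 3 rose, 0 fell and the median was 1.02. Cd80, a ligand of CD28 and CTLA-4, was at 34.1, 26.4 and 26.4 CPM against 75.2, 91.4 and 67, without overlap and with a log2 fold change of 1.43 ± 0.26 (edgeR adjusted p = 0.0141). Cd86, the other ligand of the same receptors, was at 280, 328 and 298 CPM against 331, 327 and 243, and the groups overlapped (-0.01 ± 0.26, adjusted p = 0.996). The TNF family ligands Tnfsf9 (4-1BBL; 1.70 ± 0.37) and Tnfsf4 (OX40L; 3.24 ± 0.74) rose, from 0.615 to 1.53 CPM to 7.1 to 14.7 in the case of Tnfsf4. Cd70, the ligand of CD27, was at 3.56, 3.26 and 2.46 CPM against 14.5, 10.5 and 13.8 and missed the threshold (2.05 ± 0.49, edgeR adjusted p = 0.0509). None of the 3 calls held without NoTumor-NoCD40 library 2 or 3 or without Tumor-CD40 library 2 (highest edgeR adjusted p 0.0916 for Cd80, 0.143 for Tnfsf9 and 0.185 for Tnfsf4), and 1 of the list passed without each of the other libraries. The list's median was 0.57 without Tumor-CD40 library 3.

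**Figure D2:**
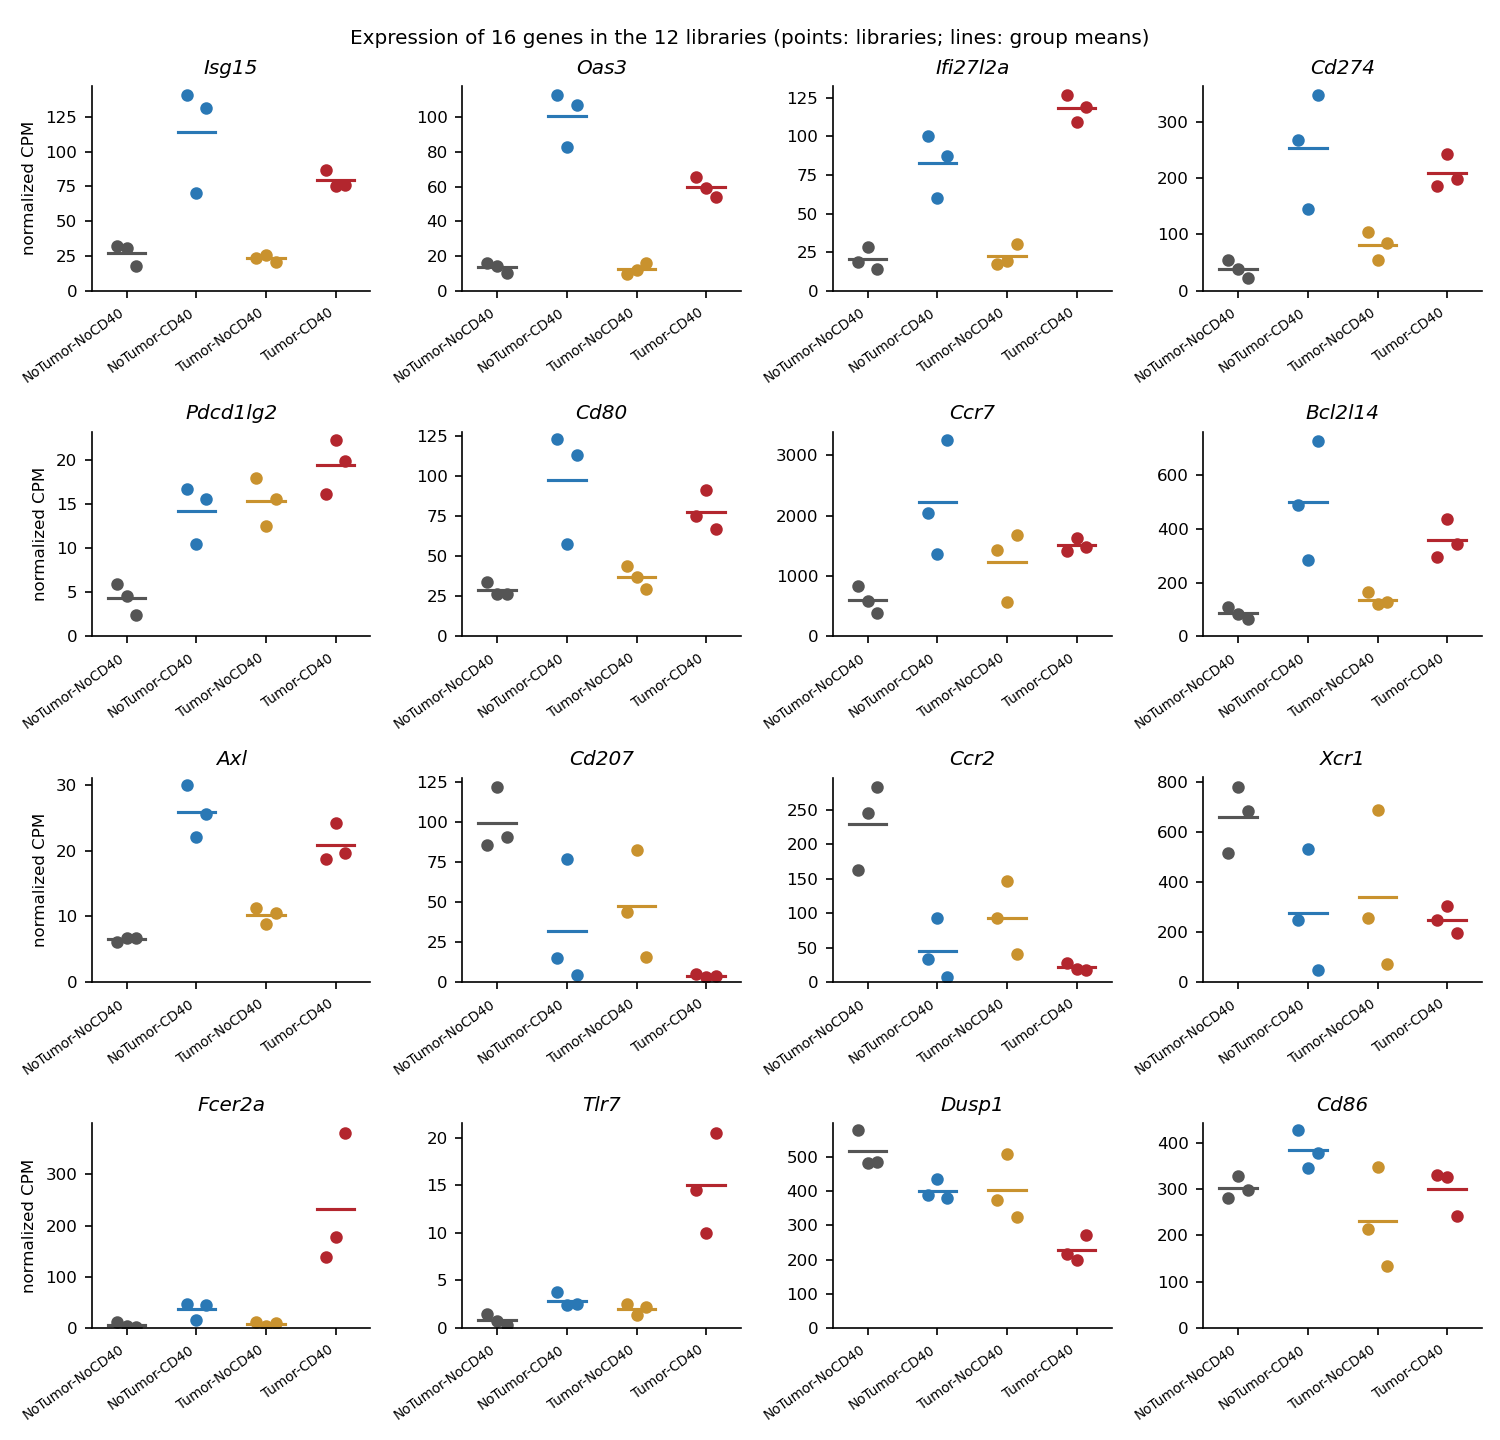
Normalized CPM (y axis, from 0) of 16 genes in the 3 libraries of each group (points, libraries 1 to 3 from left to right; lines, group means). Interferon genes and Cd274 are high in both groups given the agonist, Fcer2a and Tlr7 stand highest in Tumor-CD40, and the means of Cd207, Ccr2 and Dusp1 are lowest there.

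CD40 signaling and maturation genes moved less as groups. Cd40 itself was at 246, 200 and 161 CPM against 296, 261 and 200, overlapping (0.32 ± 0.29, edgeR adjusted p = 0.656). In the NF-kB and CD40 signaling list the median was 0.30, and 1 gene of 32 passed, where 1.84% of all genes tested did. That gene, Bcl3, an IkB family regulator of NF-kB, rose (1.22 ± 0.19, edgeR adjusted p up to 0.0518, without NoTumor-NoCD40 library 2). Of 37 genes of the mature and migratory dendritic cell program, 3 rose: Cd200, Stat4, a transducer of IL-12 signals (39.5, 18.9 and 15.3 CPM against 97, 98 and 120; 2.09 ± 0.45), and the BCL2 family member Bcl2l14 (108, 84.7 and 64.4 CPM against 296, 437 and 344; 2.07 ± 0.30, passing in each leave-one-out fit). The list's median was 0.40, and it was 0.78 without NoTumor-NoCD40 library 1 and 0.21 without NoTumor-NoCD40 library 3. That spread lay within the untouched group, whose summed level of the list was 28100, 16600 and 11700 CPM against 28100, 23400 and 22400 in Tumor-CD40. Ccr7, the receptor that leads mature dendritic cells to lymph nodes, was at 839, 582 and 390 CPM against 1420, 1640 and 1480, without overlap but short of the threshold (1.32 ± 0.39, edgeR adjusted p = 0.115). The guidance molecule Sema7a (94.3, 83.2 and 57.8 CPM against 450, 506 and 394; 2.52 ± 0.34), the Notch ligand Dll4 (2.90 ± 0.58), the vitamin D receptor Vdr (3.03 ± 0.47) and the proapoptotic Bcl2l11 (1.38 ± 0.23) rose outside these lists; Sema7a and Dll4 were chosen after their values were seen. Sema7a passed in each leave-one-out fit, Vdr not without NoTumor-NoCD40 library 3, Bcl2l11 not without NoTumor-NoCD40 library 2, and Dll4 in 2 of 6 and Stat4 in 1.

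Of 20 cytokines, 1 rose, where 1.59% of all genes tested did. Il12a, the p35 chain of IL-12, was at 0.0765, 0.115 and 0 CPM in untouched and at 3.46, 1.57 and 3.49 in treated tumor-bearing mice, low levels that give a fitted log2 fold change of 5.34 ± 1.18 (edgeR adjusted p = 0.0253, and up to 0.118 with a library left out). Il12b, the p40 chain, was at 80, 75.9 and 52.8 CPM against 138, 136 and 167, without overlap, and missed the threshold (1.08 ± 0.28, edgeR adjusted p = 0.0685). Il27 (1.58 ± 0.53) and Ebi3 (1.10 ± 0.37), the 2 chains of IL-27, were also short of it (edgeR adjusted p = 0.172 and 0.182). Of 30 chemokines and their receptors, Ccr1, Ccr6, Cxcr5 and Gpr183 rose and Ccr2 fell; Ccl17, a ligand of CCR4, was at 1.78 ± 0.51 and did not pass (edgeR adjusted p = 0.104). Leaving out NoTumor-NoCD40 library 2 or 3 left 1 chemokine list member past the threshold.

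Genes of cDC1 identity lay lower in Tumor-CD40. Of 32 tested, 1 fell, Xlr, a gene of the X chromosome (23.5, 29.8 and 24.3 CPM against 12.6, 8.59 and 10.5; -1.30 ± 0.22, edgeR adjusted p = 0.00826, and up to 0.0725 without NoTumor-NoCD40 library 2), and 0 rose. The median was -0.82, 27 of 32 lay below 0, and 21 lay lower without overlap between the groups, where 12.4% of all genes did. Xcr1 was at 515, 780 and 682 CPM against 249, 303 and 198 (-1.40 ± 0.70, edgeR adjusted p = 0.379) and Clec9a at 201, 282 and 316 against 116, 166 and 113 (-1.02 ± 0.62, adjusted p = 0.479), each without overlap. Naaa, a lysosomal amidase and cDC1 marker, had -1.82 ± 0.74 and the double-stranded RNA sensor Tlr3 -1.55 ± 0.77, while Batf3 had 0.31 ± 0.19 with overlapping groups. The spread behind these standard errors came largely from the 2 groups outside the diagonal. There Xcr1 ran from 49.5 to 533 CPM in NoTumor-CD40 and from 73.1 to 686 in Tumor-NoCD40. In both groups it was highest in library 2 and lowest in library 3. Libraries of the same number share a title prefix there (the digits that open the title). On the diagonal, library 3 has the prefix 092518 in NoTumor-NoCD40 and 091418 in Tumor-CD40. Xcr1 in Tumor-CD40 was likewise highest in library 2 and lowest in library 3, the library with prefix 091418. In NoTumor-NoCD40 it was highest in library 2 and lowest in library 1. What the prefix marks is not stated, and its part in the cDC1 identity values was not tested. With only the 6 libraries in the fit, 19 of the 32 passed as lower and 1 as higher. With the title prefix as a replicate block, the list's median was -0.41 and 1 passed as lower. MHC class II presentation gave a median of -0.49 over 18 genes and 0 called: H2-Ab1, a class II beta chain, was at 7100, 9290 and 7620 CPM against 3830, 5150 and 3460 (-0.95 ± 0.60, edgeR adjusted p = 0.496), while H2-DMb2, a chaperone chain that B cells also carry, was at 102, 104 and 90.8 against 187, 240 and 288 (1.27 ± 0.39, adjusted p = 0.136). MHC class I presentation had a median of 0.19 over 24 genes and 0 called.

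Cd207 (ENSMUSG00000034783, chromosome 6, 83671215 to 83677857), the lectin langerin, was at 85.8, 122 and 90.9 CPM in untouched and at 5.32, 3.14 and 3.84 in treated tumor-bearing mice, a log2 fold change of -4.61 ± 0.87 (edgeR adjusted p = 0.0148, and 0.0824 without Tumor-CD40 library 3). Langerin marks Langerhans cells and also a part of cDC1; of the 6 Langerhans cell markers tested, Cd207 alone passed, and Epcam had -0.84 (edgeR adjusted p = 0.469). Ccr2, the receptor that draws monocytes and dendritic cell precursors from the blood, was at 162, 245 and 283 CPM against 28, 19.7 and 18.3 (-3.39 ± 0.65, edgeR adjusted p = 0.0156, and 0.0944 without Tumor-CD40 library 3). The C-type lectin Clec4b2 (-4.75 ± 1.06), the serpin Serpinb10 (-4.04 ± 0.72), the annexin Anxa1 (-2.11 ± 0.46), the transcription factor Klf4 (-2.06 ± 0.46) and the threonine dehydrogenase gene Tdh (-3.56 ± 0.79) fell as well, all without overlap. Kctd14 (-2.39 ± 0.51), Tmem141 (-2.16 ± 0.48), Ctnnbip1, an inhibitor of beta-catenin (-2.07 ± 0.45), and Dynlt1a, a dynein light chain with near-identical copies that can share its reads (-2.98 ± 0.63), fell too; Nnt is given among the other observations. Clec4b2, Tdh, Dynlt1a, Kctd14, Anxa1, Ctnnbip1 and Klf4 passed in none of the 6 leave-one-out fits, Cd207, Ccr2 and Tmem141 in 1 and Serpinb10 in 4.

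The following genes were chosen after their values were seen and describe no list. Dusp1, a phosphatase of MAP kinases, was at 580, 484 and 486 CPM against 215, 199 and 273 (-1.17 ± 0.19, edgeR adjusted p = 0.00661) and was 1 of the 3 lower genes that passed in each leave-one-out fit, with the integrin chain Itga1 (39.9, 32.6 and 36.7 CPM against 10.9, 10 and 11.2; -1.76 ± 0.28) and Bahcc1 (-2.0). The immediate early gene Jun was at 551, 347 and 608 CPM against 149, 110 and 171 (-1.81 ± 0.39, edgeR adjusted p = 0.0291, and 0.135 without NoTumor-NoCD40 library 3). Fos (1050, 1160 and 1460 CPM against 176, 179 and 342; -2.39 ± 0.65), Fosb (-2.39 ± 0.59) and Egr1 (-2.15 ± 0.67) had lower values without overlap that did not pass (edgeR adjusted p = 0.0855, 0.0586 and 0.141), as had the heat shock genes Hspa1a (-1.91 ± 0.46) and Hspa1b (-1.79 ± 0.49).

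Most B cell markers rose. Of 21 B cell markers tested, 18 rose and 0 fell, and the list had a median of 3.15. Among them Fcer2a (ENSMUSG00000005540, chromosome 8, 3681737 to 3694175), the low-affinity IgE receptor CD23 of mature B cells, was at 12.2, 3.22 and 2.42 CPM in untouched and at 138, 177 and 381 in treated tumor-bearing mice (5.27 ± 0.63, edgeR adjusted p = 0.00151). The groups lay apart, and Tumor-CD40 library 3 was the highest of its group for each of the 18 genes. The complement receptor Cr2 (4.99 ± 0.69), the B cell factor Pax5 (4.63 ± 0.64), Ms4a1, which encodes CD20 (4.20 ± 0.55), and Fcrl1 (3.02 ± 0.34) rose with it. The summed level of the 21 genes was 271, 174 and 139 CPM in NoTumor-NoCD40, 601, 309 and 640 in NoTumor-CD40, 372, 196 and 264 in Tumor-NoCD40 and 1350, 1210 and 3000 in Tumor-CD40. Spib, 1 of the 18 genes that rose, is also a gene of mature dendritic cells and made up much of the NoTumor-CD40 sums. It gave 68.9, 36.1 and 22.7 CPM in NoTumor-NoCD40 and 239, 144 and 369 in NoTumor-CD40. In Tumor-NoCD40 it gave 92.1, 42.8 and 103 and in Tumor-CD40 224, 246 and 265. Without Tumor-CD40 library 3, 13 of the 21 passed with a median of 2.84; without NoTumor-NoCD40 library 2 or 3, 9 and 10 passed.

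Immunoglobulin genes rose beside them. Of 12 constant region genes tested, 8 rose and 0 fell (median 3.69), and of 92 variable segments 45 rose and 0 fell (median 4.67). Igkc, the kappa light chain constant region, was at 56.6, 18.8 and 28.2 CPM against 847, 387 and 780 (4.28 ± 0.61, edgeR adjusted p = 0.00345). Ighg1, the constant region of class-switched IgG1, was at 14.7, 6.48 and 3.32 CPM against 857, 159 and 265 (5.70 ± 0.89), and Ighd of naive B cells at 23.7, 10.9 and 11.2 against 107, 69.8 and 215 (3.10 ± 0.48). Library 1 was thus the highest of its group for Ighg1 and library 3 for Ighd. Of 9 plasma cell markers, Jchain, which joins IgA and IgM units (4.55, 2.23 and 6.89 CPM against 149, 33.4 and 59.1; 4.15 ± 0.76), and Mzb1, a chaperone of immunoglobulin assembly (4.67 ± 0.74), rose, and the median was 0.60. Short germline segments share sequence, so reads can be split among variable segments; without NoTumor-NoCD40 library 2, 6 of the segments and 3 constant regions passed, and without NoTumor-NoCD40 library 3, 8 and 2.

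**Figure D3:**
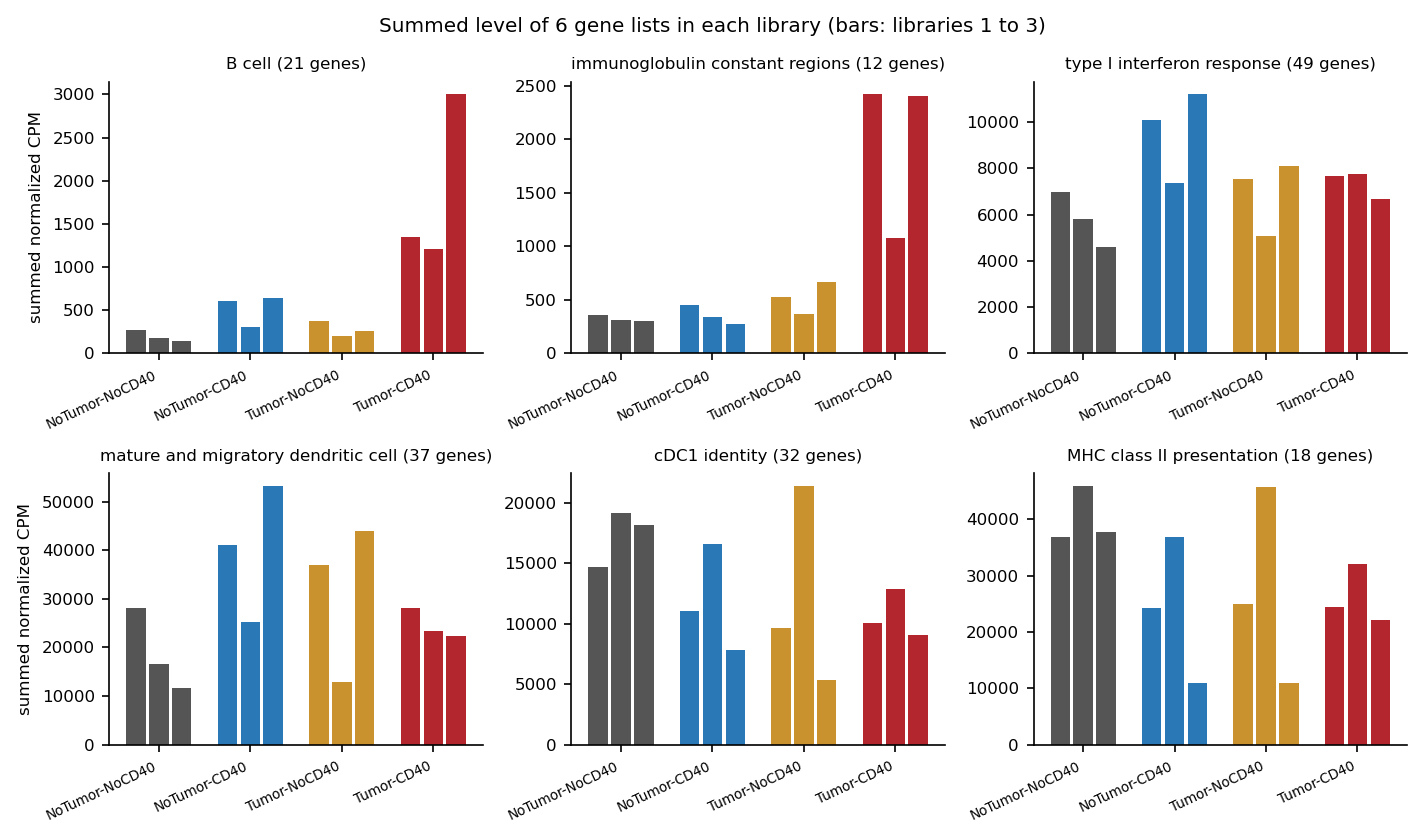
Summed normalized CPM (y axis, from 0) of the tested genes of 6 lists in each library (bars, libraries 1 to 3 of each group from left to right). The B cell list runs from 1210 to 3000 CPM in Tumor-CD40 and up to 640 elsewhere, while the mature dendritic cell, cDC1 identity and MHC class II lists differ as much among libraries of 1 group as between groups.

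Several of the other genes that rose are ones that B cells also express. Cxcr5, the receptor for entry into B cell follicles, was at 2.07, 1.84 and 1.39 CPM against 34.8, 34.2 and 102 (5.01 ± 0.62, edgeR adjusted p = 0.00195). Tlr7, an endosomal sensor of single-stranded RNA, was at 1.42, 0.767 and 0.287 CPM against 14.5, 10 and 20.5 (4.16 ± 0.48, adjusted p = 0.00108), and Cybb, a subunit of the phagocyte oxidase, at 10.9, 6.79 and 3.36 against 61.4, 60.4 and 152 (3.69 ± 0.53, adjusted p = 0.00345). In each of the 3 genes Tumor-CD40 library 3 was the highest, as it was in 154 of all 288 higher genes. Ccr6 (2.24 ± 0.39), Gpr183, the oxysterol receptor EBI2 (1.53 ± 0.29), Rac2, a small GTPase of blood cells (1.63 ± 0.23), the kinase Syk (1.31 ± 0.25), Ly6d (4.66 ± 0.72) and Fcrl5 (4.20 ± 0.58) belong here too, Fcrl5 having been chosen after its values were seen. The factor Spib, of B cells, plasmacytoid dendritic cells and mature dendritic cells, is itself on the B cell list and rose by 2.52 ± 0.42. It was as high in NoTumor-CD40 (239, 144 and 369 CPM) as in Tumor-CD40 (224, 246 and 265). Of these, Cxcr5, Tlr7, Cybb, Rac2 and Fcrl5 passed in each leave-one-out fit, and Syk in 1 of 6. The part of B cell RNA in these values was not tested. Axl, a receptor for dying cells, was at 6.05, 6.79 and 6.72 CPM against 18.7, 24.2 and 19.6 (1.68 ± 0.23, edgeR adjusted p = 0.00254), with library 2 of Tumor-CD40 the highest. Which library stood highest does not tell the source of the RNA.

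Of 29 uptake and cross-presentation genes, 4 rose (Axl, Cybb, Rac2 and Syk) and 0 fell, with a median of 0.01. Of 30 Toll-like receptors and nucleic acid sensors, 7 rose, 1 fell and the median was 0.28. Besides Tlr7 these were the RNA helicase gene Ddx58, which encodes RIG-I (11.6, 10.6 and 10.3 CPM against 39.3, 22 and 48.9; 1.76 ± 0.31), the Z-nucleic acid sensor Zbp1 (32.4, 35.9 and 30 CPM against 71.5, 72.9 and 70.7; 1.13 ± 0.19), Tmem173, which encodes STING (66, 60 and 59.9 CPM against 117, 126 and 120; 0.96 ± 0.20), Tlr1 (1.65 ± 0.29) and the interferon-inducible DNA sensor family members Mndal (1.01) and Ifi203 (1.07), which are close copies. The 2 groups did not overlap for Ddx58, Zbp1 or Tmem173. Tlr2, a receptor for bacterial lipoproteins, fell (46.1, 68.6 and 60.7 CPM against 28.9, 34.8 and 23.9; -1.0 ± 0.24, edgeR adjusted p = 0.0469, and up to 0.234 with a library left out). Tmem173 passed in none of the leave-one-out fits. Without NoTumor-NoCD40 library 3, 1 of the 30 passed, and without NoTumor-NoCD40 library 2, 2 did.

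Lists of other cell types held fewer genes past the threshold, and several had medians above 0. The median was 2.81 over 7 neutrophil genes (7 above 0, 1 passed), 2.34 over 5 erythroid and platelet genes (0 passed), 1.83 over 13 macrophage genes (10 above 0, 2 passed), 1.46 over 11 endothelial genes and 1.42 over 12 NK cell genes. The neutrophil list summed to 3.21, 2.23 and 1.11 CPM in NoTumor-NoCD40 and to 28.5, 4.38 and 23 in Tumor-CD40, and the erythroid and platelet list to 8.8, 1.57 and 1.43 against 7.27, 8.05 and 64.5, the groups of the second overlapping. The NK cell list, despite its median, summed lower in Tumor-CD40, at 307, 345 and 300 CPM against 287, 273 and 245. Its median log2 difference from the NoTumor-NoCD40 mean was 1.83, -0.01 and 1.88 in the 3 Tumor-CD40 libraries. The plasmacytoid dendritic cell list had a median of 0.58 over 12 genes, with 10 above 0. It summed to 298, 229 and 205 CPM against 592, 571 and 695. The 2 of its genes that passed, Ly6d and Spib, were given above among those that B cells also express. The part of RNA from the cell types of these lists in other values was not tested. Of 12 monocyte markers, Ly6c2, an interferon-responsive surface protein as well as a monocyte marker (12, 14.8 and 9.18 CPM against 57.7, 47.4 and 71.4; 2.29 ± 0.29), Ms4a4c and Chil3 rose and Ccr2 fell. In Tumor-CD40 the chitinase-like protein gene Chil3 was at 0.649, 1.73 and 23.5 CPM, so that library 3 stood alone, and it did not pass without library 3 (edgeR adjusted p = 0.14). Of 13 macrophage markers, the sialoadhesin gene Siglec1 (1.84, 0.959 and 1.27 CPM against 5.67, 4.67 and 8.36; 2.20 ± 0.47) and the complement gene C1qb (2.62 ± 0.50) rose, and the list summed to 139 to 154 CPM against 128 to 172. S100a8, a calcium-binding protein of neutrophils, was 0.0765 CPM or lower in NoTumor-NoCD40 and at 8.52, 1.2 and 8.36 in Tumor-CD40 (7.09 ± 1.68, edgeR adjusted p = 0.0392), and Slpi, a protease inhibitor of neutrophils and epithelia, went from 1.53, 0.537 and 0.574 CPM to 48, 24.6 and 36.7 (5.35 ± 0.83, adjusted p = 0.00493). Kdr, the VEGF receptor of endothelium, went from 3.48, 2.61 and 1.27 CPM to 13.9, 41 and 15.7 (3.25 ± 0.55), and it was the 1 of 11 endothelial markers to pass. With 1 library left out, Ly6c2 passed each time, Slpi in 5 of 6 fits, Kdr in 4, C1qb in 2 and S100a8 and Siglec1 in 1. None of the 16 T cell markers and none of the 12 NK cell markers passed; Cd3e was at 13.8 to 24.6 CPM against 17.2 to 31.

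Some large changes fell in no list. Ly6a, which encodes the interferon-responsive surface protein Sca-1, was at 24.3, 33.4 and 17.1 CPM against 200, 175 and 212 (2.97 ± 0.30, edgeR adjusted p = 0.00108). Abca13, a lipid transporter (1.99, 1.07 and 0.902 CPM against 35.8, 70.3 and 27; 5.05 ± 0.58), Upp1, uridine phosphorylase (1.42, 1.15 and 0.656 CPM against 22.4, 44.6 and 15.1; 4.65 ± 0.53), and the predicted gene Gm6545 (4.92 ± 0.69) rose, and the fatty acid desaturase gene Scd1 went from 20.7, 8.44 and 8.94 CPM to 79.2, 66 and 235 (3.32 ± 0.50). Cdk5r1, an activator of the kinase CDK5, went from 7.5, 3.91 and 3.69 CPM to 28.5, 41 and 50.9 (2.99 ± 0.44). All 6 passed in each leave-one-out fit. Ly6a, Scd1 and Cdk5r1 were chosen after their values were seen.

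**Figure D4:**
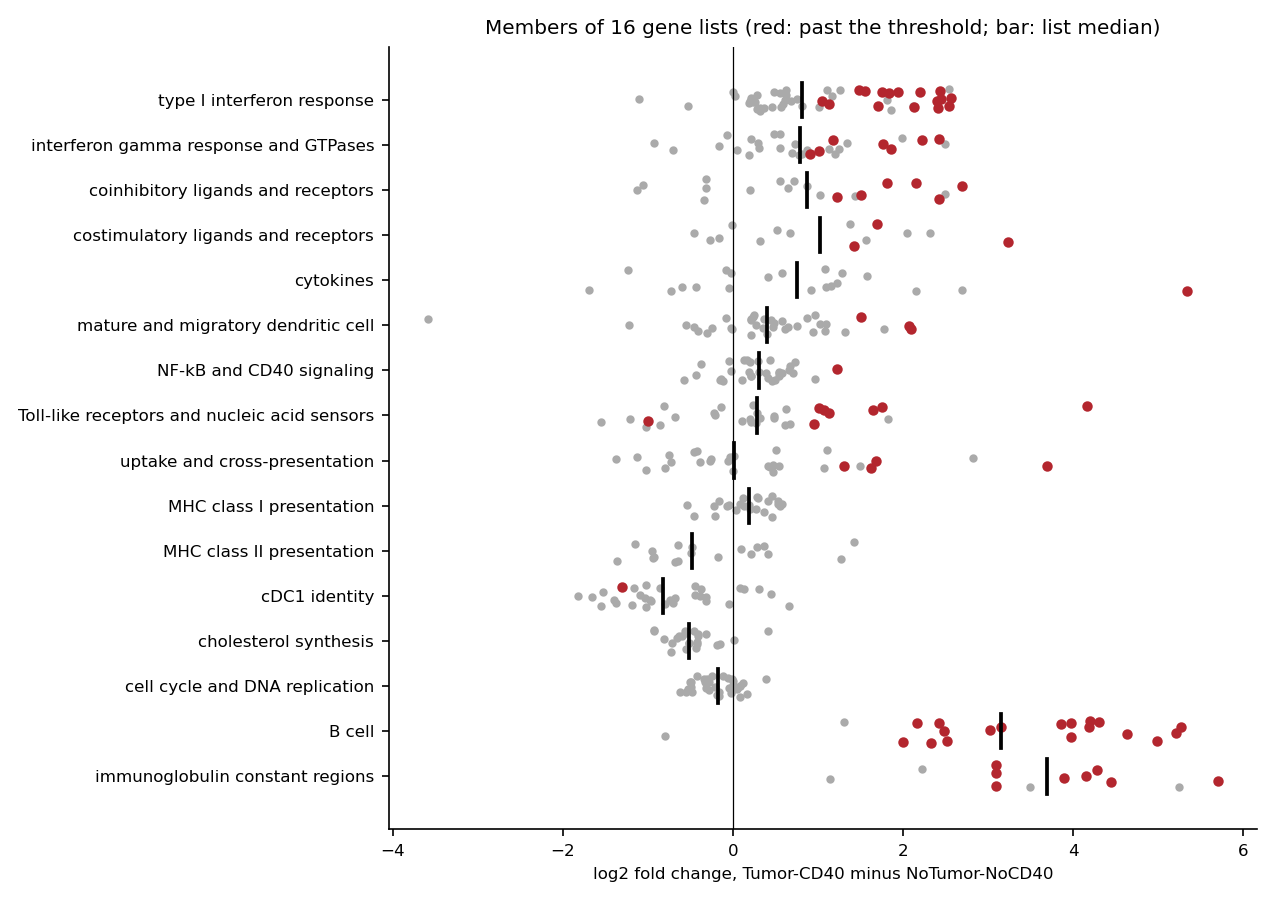
Log2 fold changes of Tumor-CD40 over NoTumor-NoCD40 (x axis) for the tested members of 16 lists (rows; red, past the threshold; grey, not; bar, list median). The interferon lists lie right of 0 (medians 0.81 and 0.80), cDC1 identity lies left (-0.82), and the B cell and immunoglobulin lists lie farthest right (3.15 and 3.69).

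In the metabolic and housekeeping lists given here 1 gene passed. Cholesterol synthesis had a median of -0.51 over 24 genes, with 22 below 0, and the unfolded protein response -0.30 over 22, with 17 below 0, and neither held a called gene. Hspa5, the main chaperone of the endoplasmic reticulum, was at 911, 1250 and 955 CPM against 590, 566 and 599, without overlap (-0.83 ± 0.32, edgeR adjusted p = 0.245). Nuclear genes of oxidative phosphorylation had a median of -0.28 over 81 genes with 1 called, Ndufb8 of complex I, which fell (-0.91 ± 0.21, edgeR adjusted p = 0.047, and in no leave-one-out fit). Mitochondrial and cytosolic ribosomal proteins had medians of -0.19 and -0.18 over 78 genes each and 0 called, cell cycle genes -0.17 over 36 and glycolysis 0.05 over 24, also with 0 called. Without overlap between the groups, 10 of 22 genes of the unfolded protein response, 33 of 78 cytosolic and 22 of 78 mitochondrial ribosomal protein genes and 19 of 81 of oxidative phosphorylation lay lower, against 12.4% of all genes.

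The diagonal was then set against the agonist's effect within each tumor state. Tumor-CD40 against NoTumor-CD40 tests where the diagonal differs from the agonist's effect without a tumor: 36 genes passed (0.199%), 35 higher and 1 lower, and 19 of the 36 were immunoglobulin genes and 9 more B cell or plasma cell markers. These included Cd79b of the B cell receptor (2.85, edgeR adjusted p = 0.0425), Bank1 (2.92, adjusted p = 0.0419) and Fcrl1 (2.40, adjusted p = 0.0162). The other 8, named after their values were seen, were Tlr7 (2.39), Ccr6 (2.33), Rac2 (1.30), Scd1 (3.15), Cyp4f18, a fatty acid hydroxylase (3.77), C1qb (2.81) and the scavenger receptor Marco (4.02), which were higher, and Prph, the intermediate filament peripherin, which was lower (-1.43). Prph was at 16.5, 15.5 and 11 CPM in NoTumor-NoCD40, 36.7, 51.7 and 56.6 in NoTumor-CD40, 12.1, 9.11 and 13.1 in Tumor-NoCD40 and 17, 20 and 16.8 in Tumor-CD40, so that the agonist group without tumor stood apart. No gene of either interferon list (49 and 30 tested) passed this test. At the overall share of 0.199%, lists of this size would seldom hold a called gene, so this says little about them. It rested on single libraries: with 1 left out, 0 genes passed without NoTumor-CD40 library 2 or 3 and 71 without Tumor-CD40 library 2, 6 passed without Tumor-CD40 library 3 and 7 without NoTumor-CD40 library 1, and 0 passed with immunoglobulin genes left out of the fit.

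Tumor-NoCD40 against NoTumor-NoCD40 tests where the diagonal differs from the agonist's effect with a tumor. By edgeR 0 of 18095 genes passed, 1053 had an unadjusted p under 0.05, and DESeq2 called 24. DESeq2 exceeded its nominal rate of false calls in the simulated data. Those were drawn with the spread that edgeR had estimated and with no effect of the title prefix, so they cannot decide between the 2 counts. The comparisons share libraries, so their values are set side by side without a test of overlap. For the type I interferon list the median log2 fold change was 0.81 across the diagonal, 0.93 for the agonist without tumor and 1.06 with tumor, and for the B cell list 3.15, 1.02 and 2.98. For the mature dendritic cell list the medians were 0.40, 1.07 and -0.21, and for cDC1 identity -0.82, -0.63 and -0.27. Pdcd1lg2 had 2.16 across the diagonal, 1.71 for the agonist without tumor and 0.34 with tumor. Its Tumor-NoCD40 libraries were at 18, 12.5 and 15.6 CPM. Tumor-NoCD40 against NoTumor-NoCD40 gave 1.82 ± 0.32 for it, which did not pass (edgeR adjusted p = 0.506). Oas3 had 2.13, 2.89 and 2.23, and Tumor-NoCD40 libraries were at 9.83, 12.2 and 16.1 CPM, overlapping untouched mice.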

How the data were processed

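RNA-seq was compared in 6 of 12 mouse libraries of lymph node cDC1, as labelled. Per the submitters' processing notes, Salmon and the mm10 build were used; no version or annotation release is given in the sources used here. The authors deposited expected counts per transcript (estimated, unnormalized) and TPM per transcript. The 136176 of 136288 transcripts found in GENCODE M21 (GRCm38) were summed to genes and counts were rounded. In R 4.3.3, edgeR 4.0.16 was run on all 12 libraries with 4 groups (8 residual degrees of freedom): TMM, filterByExpr (minimum count 10, total 15), glmQLFit with legacy = FALSE (the default of this version is TRUE), glmQLFTest, two-sided, Benjamini-Hochberg over 18095 genes, threshold 0.05. SEs were derived from F. limma 3.58.1 and DESeq2 1.42.0 were alternatives. The tests were tried on a single set of simulated counts, drawn with the spread that edgeR had estimated and with no effect of the title prefix. It therefore does not judge DESeq2 on ground independent of edgeR.

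Libraries, 38 gene lists and the naming rule were chosen with earlier results of these data known. The rule named a panel of 14 genes, up to 12 genes per direction by fold change (past the threshold, at least 5 CPM in the higher group, no overlap, no immunoglobulin or T cell receptor segment), up to 4 called members per list by p, and list extremes as values. Genes named outside this rule were chosen after their values were seen. Results for some genes are not reported here.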

Additional observations from a re-analysis of the deposited data

How the results depend on the processing

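Each of the 333 genes called across the diagonal that an alternative gave a value for kept its direction there. The alternatives reuse the libraries in which these genes were chosen for their difference, so a kept direction was largely fixed beforehand and adds no support. The number called was 201 with legacy = TRUE, 724 with DESeq2, 109 with limma-voom and 96 with limma on log2(TPM + 1). DESeq2 made more false calls than its nominal rate in simulated data, which were drawn with edgeR's spread and cannot judge it independently. The number was 1241 with only the 6 libraries in the fit, 193 with the title prefix as a replicate block and 529 with the block and only the 2 shared prefixes. It was 17 without both libraries of unshared prefix, an alternative chosen after seeing the data. With 1 library left out it ran from 66 to 224. The higher genes made up 86.5% of the calls in the reported fit, 76.9% with DESeq2, 75.1% with the replicate block, 59% with the block and shared prefixes and 58.1% with only the 6 libraries. For Tumor-CD40 against NoTumor-CD40 (36) the count was 0 with legacy = TRUE, with limma-voom and with immunoglobulin genes left out, 3 with only the 6 libraries, 12 with TPM, 161 with DESeq2, 89 with no filter, 83 with the replicate block, and 0 to 71 with 1 library left out. For Tumor-NoCD40 against NoTumor-NoCD40 (0) it was 24 with DESeq2, 1 with no filter, and 0 to 2 with 1 library left out. With DESeq2 size factors or total counts in edgeR the diagonal's count was 337 and 343, the median of all genes 0.019 and 0.024, and the list medians quoted kept their sign. Of 92 immunoglobulin variable segments tested, 12 passed with legacy = TRUE and 3 with limma-voom, against 45. With TPM the median was 0.57 for costimulatory and 0.32 for coinhibitory genes, and with the replicate block -0.41 for cDC1 identity and 0.12 for mature dendritic cell genes. Libraries share a title prefix across groups. The deviations of same-prefix libraries of the diagonal correlated by 0.0398 and 0.012, and those of different prefixes by -0.0358 to 0.0241. The prefixes were not taken as pairs, though these few values cannot show that libraries of the same prefix vary independently. Outside the diagonal the summed cDC1 identity list went with the prefix. For libraries 1 to 3, which share prefixes there, it was 11100, 16600 and 7810 CPM in NoTumor-CD40 and 9660, 21400 and 5370 in Tumor-NoCD40. On the diagonal, where library 3 differs in prefix, it was 14700, 19200 and 18200 in NoTumor-NoCD40 and 10100, 12900 and 9100 in Tumor-CD40. Cd86 changed sign between -0.01 and values from 0 to 0.14 (0.02 and 0.03 with other scalings, filters or tools, 0.13 and 0.14 with the block, -0.08 to 0.14 with 1 library left out), none past the threshold. The causes were not tested. With 3 libraries a group the common biological coefficient of variation was 58.4%, and genes under 1 CPM rest on few reads.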

Other observations

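Nnt, the mitochondrial nicotinamide nucleotide transhydrogenase, has 2 gene entries of the same name in the annotation, and they moved in opposite ways. The entry that the naming rule gave (ENSMUSG00000116207) was at 8.15, 5.91 and 10.8 CPM in NoTumor-NoCD40 and at 0.562, 1.61 and 0 in Tumor-CD40 (log2 fold change -3.52 ± 0.77, edgeR adjusted p = 0.0307, and up to 0.14 with a library left out). The other Nnt entry (ENSMUSG00000025453) was at 4.32, 10.3 and 0.041 CPM in NoTumor-NoCD40 and at 10.6, 7.02 and 10.3 in Tumor-CD40 (0.91 ± 0.77, edgeR adjusted p = 0.626). Reads can be shared between such entries, so the fall of the first is not a measured fall of Nnt as a whole.

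Aldh1a2, the enzyme that makes retinoic acid, was highest in Tumor-NoCD40 (35.3, 30.9 and 18.5 CPM) and lower in Tumor-CD40 (11.5, 16.5 and 12.3), NoTumor-NoCD40 (6.89, 4.26 and 2.87) and NoTumor-CD40 (5.47, 6.52 and 2.5). Across the diagonal its log2 fold change was 1.51 ± 0.39 (edgeR adjusted p = 0.0692). The beta-2 chain of the IL-12 receptor, Il12rb2, fell (23.1, 28.2 and 23.6 CPM against 12.4, 12.8 and 8.68; -1.15 ± 0.25, edgeR adjusted p = 0.0303), in the same libraries in which Il12a was higher, and it passed in none of the leave-one-out fits (adjusted p up to 0.171). Aldh1a2 and Il12rb2 were named after their values were seen; Nnt came from the naming rule.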
